A study of Mus musculus with 12 samples.

Results

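The genes followed here, 10 in number, carry glucose from the medium to secreted lactate: the glucose transporter Slc2a1, the hexokinases Hk1 and Hk2, the glycolytic enzymes Gpi1, Pfkfb3, Aldoa, Pgk1, Pkm and Ldha, and the lactate exporter Slc16a3. They were taken by symbol from a set chosen with earlier results of these data known, and are 10 of the 23420 genes in each of 12 count tables. Total RNA was sequenced from colonic crypts of wild-type mouse aged 6 to 10 weeks and from confluent monolayers grown from such crypts, collected at day 3, day 4 or day 5, with 3 libraries in each of the 4 groups. The monolayer cells had first been expanded on collagen and were then replated on scaffolds whose cross-linking forms a gradient, and the whole monolayer was lysed. No gene was targeted and no agent is named in the labels. The labelled transepithelial resistance was 526 ± 56 ohm cm2 for day 3 monolayers, 623 ± 15 for those of day 4 and 407 ± 53 for those of day 5, with an error whose type is not named. The study set cells grown in vitro against tissue from the animal, so culture and the removal from the tissue cannot be told apart. The labels do not tell separate animals from separate dishes among the 3 libraries of a group, and a p-value therefore covers the spread among libraries alone, which may be technical.

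Glycolysis splits glucose into pyruvate and yields ATP without oxygen. Transporters of the Slc2a family let glucose in, hexokinases trap it by phosphorylation, and the later enzymes carry it down to pyruvate, which either enters mitochondria or is reduced to lactate by lactate dehydrogenase and exported with a proton. Colonic epithelial cells in the animal also burn butyrate from bacteria in their mitochondria, and several of the genes are textbook targets of the hypoxia-inducible factors and of Myc.

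The promoters of the 10 genes were searched for ACGTG, the core of the element bound by hypoxia-inducible factors, on both strands. The search covered the 250 bases before each start in the RefSeq table (GRCm38.p6). Several of the 10 are textbook targets of these factors, so the shares below describe a chosen list and were not tested. All 10 genes matched the table, with 16 windows. ACGTG occurred in 8 of the 10 genes (80%) and in 10 of the 16 windows (62.5%), against 16.6% of all windows in the table and 21.6% of those of genes tested here. By gene the shares were 18.5% in the whole table and 25.3% among genes tested, and a gene with several starts had more chances to match. The windows of Aldoa starts 2 and 3 overlap and hold the same match, which thus counts in both windows. Hk1 and Gpi1 held none in their windows, which says only that these letters were not in them. The last 160 bases before the start are shown for the 4 genes that had both a match and no annotated exon in that stretch, with the matches in capitals. Pgk1 lies at chrX:106186940-106187099 on the plus strand, Hk2 at chr6:82774455-82774614 on the minus strand, Aldoa (start 2 of 3) at chr7:126799255-126799414 on the minus strand and Ldha (start 1 of 2) at chr7:46845644-46845803 on the plus strand.
Pgk1: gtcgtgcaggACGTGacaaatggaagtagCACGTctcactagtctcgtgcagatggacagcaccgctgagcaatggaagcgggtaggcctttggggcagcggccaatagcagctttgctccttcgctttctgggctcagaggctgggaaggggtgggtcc
Hk2: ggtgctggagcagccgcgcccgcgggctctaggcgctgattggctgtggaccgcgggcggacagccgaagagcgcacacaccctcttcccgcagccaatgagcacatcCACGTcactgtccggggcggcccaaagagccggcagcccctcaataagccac
Aldoa: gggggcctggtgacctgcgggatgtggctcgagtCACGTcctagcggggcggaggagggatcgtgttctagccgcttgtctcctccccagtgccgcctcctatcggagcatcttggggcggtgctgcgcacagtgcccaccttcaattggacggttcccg
Ldha: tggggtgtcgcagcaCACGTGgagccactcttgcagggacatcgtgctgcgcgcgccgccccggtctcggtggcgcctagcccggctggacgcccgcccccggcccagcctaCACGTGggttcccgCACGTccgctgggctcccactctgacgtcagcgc
Counting the base before the start as position -1, the matches begin at -150 and -131 in Pgk1, at -52 in the stretch shown for Hk2 with another at -226 before it, and at -126 in Aldoa. The Ldha stretch held 5 matches, 4 of them inside 2 copies of CACGTG, the E-box that Myc and other factors bind, which is read as ACGTG on both strands and so counts as 2 overlapping matches. CACGTG occurred in 2 of the 16 windows (12.5%), those of Ldha and Pfkfb3, against 6.02% of all windows and 8.26% of those of genes tested. A match describes the letters and is not a binding site.

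Depth was 4518314 to 14290393 counts in genes per library, and levels are given as CPM, counts relative to the library total scaled by TMM factors. Summed epithelial markers (8 genes, among them Epcam and Krt8) ran from 9263 to 10569 CPM in crypts and 10956 to 14771 CPM in monolayers. None was at 0, so both kinds of sample carried the labelled epithelium. Keratins carried the higher sum, with means in crypts and monolayers of 518 and 2338 CPM for Krt18, 3172 and 3789 for Krt8, and 2050 and 3006 for Krt19. Epcam had a lower mean in monolayers (1708 and 1478 CPM), as had Vil1, Cldn7 and Cdx2, and Cdh1 was close (1459 and 1481 CPM). Leukocyte markers (12 genes) summed to 26.9 to 72.2 CPM in crypts and 2.77 to 11.3 in monolayers, where Cd3g, Cd79b and Cd8a were at 0. Mesenchymal markers (11 genes) summed to 23.1 to 97.9 against 1.80 to 5.44 CPM, with Acta2 at 0 in crypts and Dcn and Lum at 0 in monolayers. Endothelial markers (5 genes) summed to 3.52 to 6.79 against 0.538 to 4.02 CPM, with Cdh5 at 0 in crypts, and the 4 of 6 listed red cell genes in the tables summed to 0.361 to 2.40 CPM in crypts and 0 in monolayers, Hba-a1 and Hba-a2 being at 0 in crypts as well. The nuclear RNA Malat1 took 2.02 to 2.34% of gene counts in crypts, 5.65 to 5.98% at day 3, 7.40 to 8.05% at day 4 and 9.30 to 12.2% at day 5, and reads in no gene made up 45.6 to 49.0% in crypts and 38.7 to 42.8% in monolayers. These values moved with the comparison of crypts and monolayers below, and their part in it was not tested. Day 5 replicate 1 stood apart, with the fewest genes detected (12293), and results between days are given below without it where that ends a call.

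All 10 genes were higher in monolayers than in crypts, and in none of them did a monolayer library reach down to the crypt range. The share of all genes tested that show no overlap was not counted, here or between days. Lack of overlap is therefore given as a description of each gene. Each was called (edgeR adjusted p under 0.05) in the mean of the 3 days against crypts, where 30.7% of the 12863 genes tested were called higher and 32.8% lower. Each was called again at day 3, where 28.4% of genes were called higher, at day 4 (28.7%) and at day 5 (28.4%), comparisons that share the same 3 crypt libraries. The median log2 fold change was 2.21 over the 10 genes and -0.03 over all genes tested. All 10 passed the filter on low counts, with at least 1.30 CPM in every library. In bulk RNA a larger share of cells expressing a gene and more RNA of it per cell cannot be told apart. Summed over the 10 genes, the level was 2074 ± 112 CPM in crypts (SD, n = 3) and 9374 ± 563 CPM in monolayers (n = 9), and the genes took 0.22 to 0.237% of gene counts in crypts and 0.828 to 0.994% in monolayers.

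**Figure D1:**
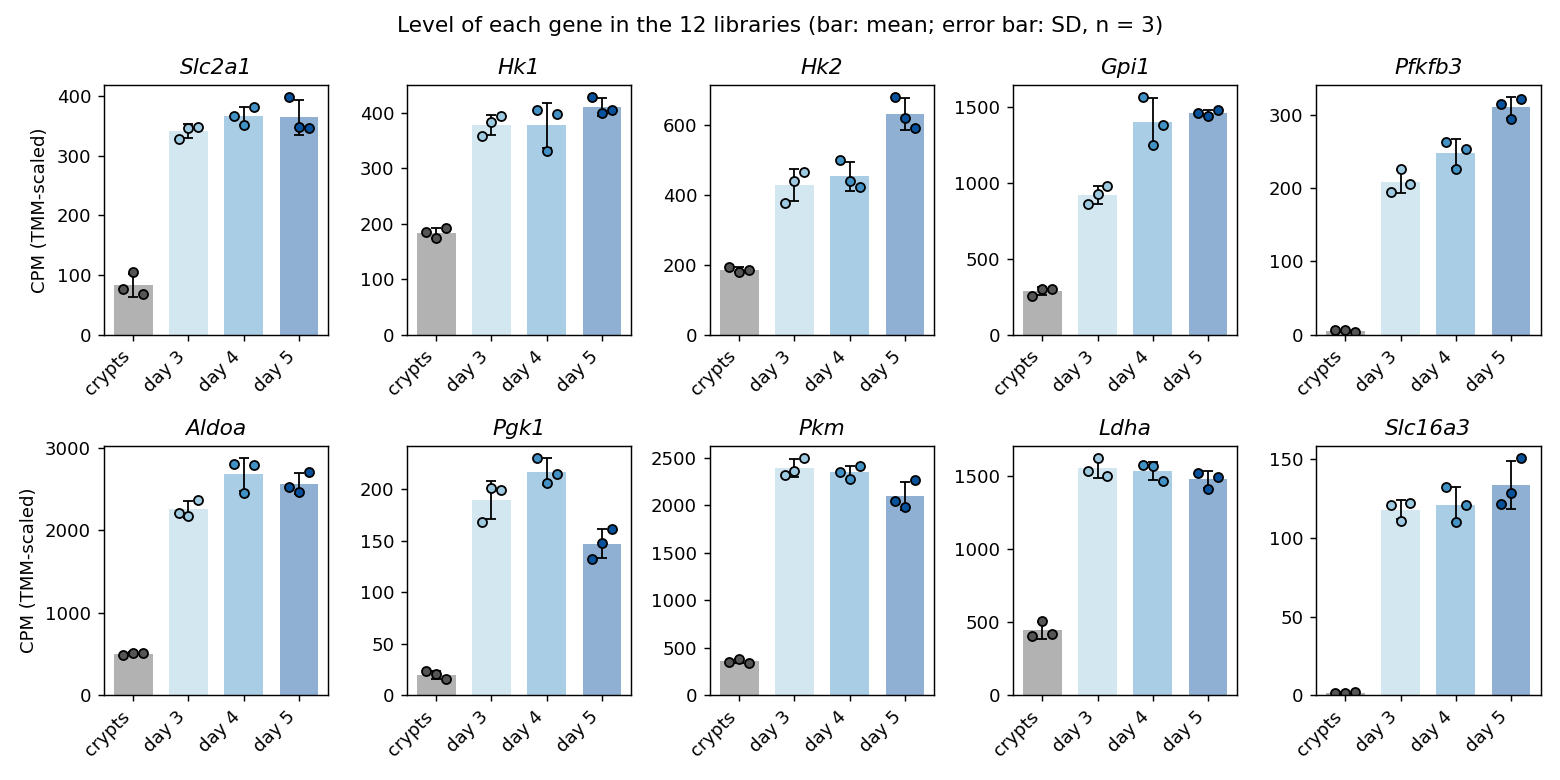
TMM-scaled CPM of each of the 10 genes in the 12 libraries (points), with the group mean (bar) and SD (n = 3, error bar), each panel on its own linear axis from 0. In every panel the 3 crypt libraries lie below all 9 monolayer libraries, and in the panels of Pgk1 and Pkm the day 5 libraries lie below all those of days 3 and 4.

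Uptake and trapping of glucose came first. Slc2a1 encodes GLUT1, the basal glucose transporter of many cells. Its level was 75.7, 104 and 67.8 CPM in crypts, 327, 347 and 348 CPM at day 3, 367, 350 and 381 CPM at day 4, and 398, 347 and 346 CPM at day 5. The lowest monolayer library stood 3.14-fold above the highest crypt library, and the days overlapped between day 5 and both earlier days. The change of monolayers against crypts was 2.11 ± 0.11 (log2 ± SE, 4.32-fold, edgeR adjusted p = 7.18e-12).

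Hk1 and Hk2 encode the hexokinases that bind mitochondria, Hk1 being the housekeeping form and Hk2 the form with a strong response to insulin and hypoxia in other tissues. Hk1 was at 186, 174 and 192 CPM in crypts, 359, 383 and 395 CPM at day 3, 405, 331 and 398 CPM at day 4, and 429, 400 and 405 CPM at day 5, a change of 1.08 ± 0.08 (log2, 2.11-fold, edgeR adjusted p = 6.21e-10) and the smallest of the 10. Hk2 was at 193, 180 and 184 CPM in crypts, 378, 438 and 466 CPM at day 3, 500, 438 and 421 CPM at day 4, and 680, 619 and 591 CPM at day 5. Its change was 1.42 ± 0.08 (log2, 2.67-fold, edgeR adjusted p = 4.15e-11). Neither hexokinase overlapped between crypts and monolayers, and the day 5 libraries of Hk2 lay above all 6 of days 3 and 4.

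The middle of the pathway was represented by Gpi1, Pfkfb3 and Aldoa. Gpi1, which turns glucose 6-phosphate into fructose 6-phosphate, was at 256, 303 and 301 CPM in crypts, 860, 927 and 977 CPM at day 3, 1565, 1248 and 1381 CPM at day 4, and 1458, 1438 and 1481 CPM at day 5. Its change was 2.10 ± 0.09 (log2, 4.30-fold, edgeR adjusted p = 2.05e-13), and its day 3 libraries were the lowest of the monolayers. Aldoa, the aldolase of muscle and most other cells, was at 483, 518 and 509 CPM in crypts, 2211, 2178 and 2370 CPM at day 3, 2805, 2447 and 2784 CPM at day 4, and 2523, 2465 and 2707 CPM at day 5. It changed by 2.31 ± 0.07 (log2, 4.95-fold, edgeR adjusted p = 6.65e-15), and its lowest monolayer library was 4.20-fold above its highest crypt library.

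Pfkfb3 makes fructose 2,6-bisphosphate, the strongest activator of phosphofructokinase, and was low in crypts. It had 33, 45 and 39 counts there, or 6.61, 5.87 and 3.52 CPM. In monolayers it reached 195, 226 and 206 CPM at day 3, 264, 226 and 253 CPM at day 4, and 315, 295 and 322 CPM at day 5. The change was 5.64 ± 0.15 (log2, 49.96-fold, edgeR adjusted p = 5.54e-16), and the lowest monolayer library was 29.5-fold above the highest crypt library.

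At the lower end, Pgk1 makes the first ATP of the pathway and Pkm encodes muscle-type pyruvate kinase, which makes the second. Pgk1 was at 23.2, 20.2 and 15.6 CPM in crypts, 169, 201 and 199 CPM at day 3, 231, 205 and 215 CPM at day 4, and 133, 148 and 161 CPM at day 5, a change of 3.24 ± 0.12 (log2, 9.45-fold, edgeR adjusted p = 7.79e-14). Pkm was at 356, 384 and 340 CPM in crypts, 2319, 2365 and 2505 CPM at day 3, 2355, 2275 and 2414 CPM at day 4, and 2052, 1987 and 2264 CPM at day 5. Its change was 2.66 ± 0.08 (log2, 6.33-fold, edgeR adjusted p = 1.35e-15). Both genes stood more than 5-fold above the highest crypt library in their lowest monolayer library (5.71-fold for Pgk1 and 5.18-fold for Pkm), and both were lowest among monolayers at day 5. Gene counts cannot tell the M1 and M2 splice forms of Pkm apart.

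Lactate formation and export closed the route. Ldha, the lactate dehydrogenase subunit that favours making lactate, was at 406, 510 and 418 CPM in crypts, 1530, 1624 and 1498 CPM at day 3, 1571, 1568 and 1464 CPM at day 4, and 1521, 1410 and 1494 CPM at day 5. It changed by 1.77 ± 0.08 (log2, 3.41-fold, edgeR adjusted p = 7.36e-13), and the 3 days overlapped. Slc16a3 encodes MCT4, the low-affinity carrier by which strongly glycolytic cells release lactate. It had 9, 10 and 23 counts in crypts, or 1.80, 1.30 and 2.08 CPM, and reached 121, 111 and 122 CPM at day 3, 132, 110 and 121 CPM at day 4, and 121, 128 and 151 CPM at day 5. This was the largest change of the 10, 6.12 ± 0.16 (log2, 69.8-fold, edgeR adjusted p = 5.80e-16). With so few crypt counts the size of this fold is less certain than its direction.

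**Figure D2:**
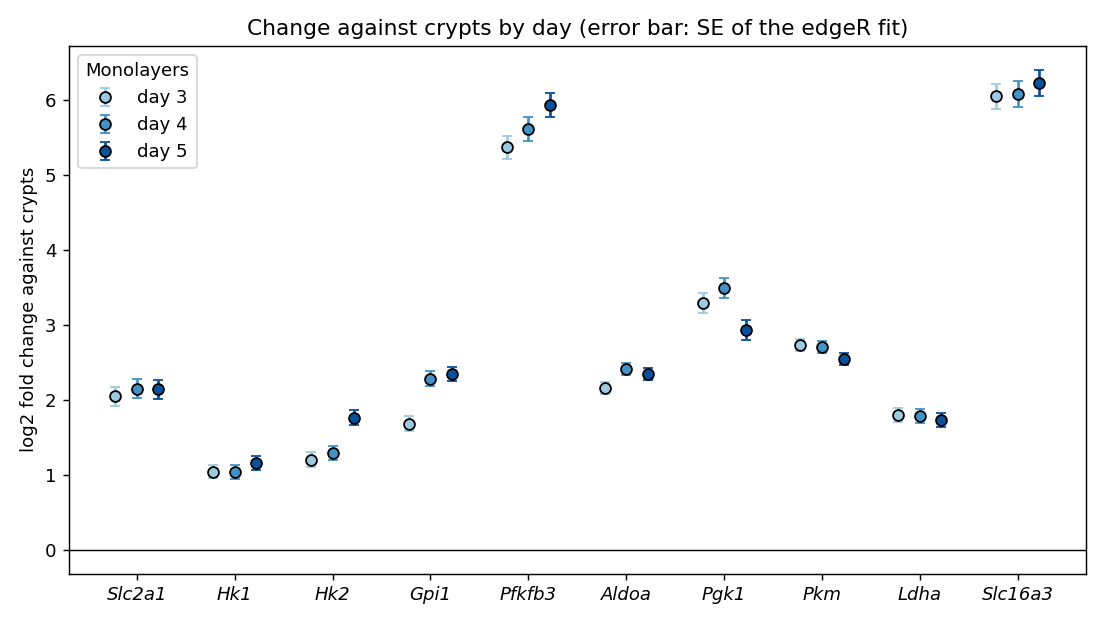
Log2 fold change of each gene at day 3, day 4 and day 5 against the same 3 crypt libraries (points), with the SE of the edgeR fit (error bars). All 30 points lie above 0, from 1.04 for Hk1 at days 3 and 4 to 6.23 for Slc16a3 at day 5.

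The 10 changes differed widely in size. Among all 12863 genes tested, ranked from the highest log2 fold change, Slc16a3 was number 216 and Pfkfb3 number 260, whereas Hk1 was number 1887 and Hk2 number 1439. Per kilobase of annotated exon, the order of levels in crypts was Aldoa (276 CPM per kb), Ldha (235), Pkm (138), Gpi1 (99.4), Hk1 (37.9), Hk2 (33.1), Slc2a1 (25.3), Pfkfb3 (0.966) and Slc16a3 (0.388). Aldoa and Ldha were the only neighbours in that order whose crypt libraries overlapped. In monolayers Aldoa stayed first at 1370 CPM per kb, followed by Pkm (878) and Ldha (802), which overlapped, and Gpi1 (437). Slc2a1 (109), Hk2 (89.7) and Hk1 (80.2) formed a band in which each overlapped its neighbours, above Pfkfb3 (46.3) and Slc16a3 (27.9). Pgk1 (10.8 in crypts and 101 in monolayers) was left out of both orders, because more than the other 9 it shares its sequence with other genes, and its countable length is unknown. Aldoa, Pkm, Ldha and Gpi1 also share sequence, as given below, and how far this moves their places was not tested.

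Copies in the genome touch some of these levels. Of the 50-base stretches in Pgk1 transcripts, 53.9% also occurred in transcripts of 5 pseudogenes, as did 14.2% of Pkm, 9.03% of Ldha, 8.23% of Gpi1 and 6.43% of Aldoa stretches in those of other genes (GENCODE M21). Reads without a unique alignment were set aside before the counts were deposited, so reads lying wholly in such stretches could be missing from these counts. How many were lost was not tested, and the read length is not stated. For Slc2a1, Hk1, Hk2 and Slc16a3 the share was 0, and for Pfkfb3 it was 0.363%. Aldoa overlaps Fam57b on the other strand, and Slc2a1, Hk1, Hk2, Gpi1 and Pfkfb3 overlap noncoding genes on the other strand. On their own strand Pkm overlaps the gene model Gm49759, Pfkfb3 the gene model Gm37975 and Slc2a1 the microRNA gene Mir1957a. The strand setting of the counting is not stated, so reads of these genes and of their partners on the other strand cannot be told apart.

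Related enzymes were then set against each other inside each library, where scaling plays no part. All 6 ratios differed between monolayers and crypts with no overlap (two-sided exact permutation test, p = 0.00909 for each and after adjustment over the 6, the smallest value that 9 against 3 libraries allow). The ratio of Slc16a3 to Slc16a1, the high-affinity carrier MCT1, lay between -7.43 and -6.89 (log2) in crypts and between -0.89 and -0.55 in monolayers, a difference of 6.36. Slc16a1 itself went from 242 ± 21.3 CPM (n = 3) to 206 ± 17.4 CPM (n = 9), while Slc16a3 went from 1.30 to 2.08 CPM in crypts to 110 to 151 CPM in monolayers. The ratio of Pfkfb3 to Pfkfb2, an isoform of the same bifunctional enzyme, went from -4.51 to -3.65 in crypts to 0.54 to 1.46 in monolayers, a difference of 5.02 (log2).

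The other 4 ratios moved less. Ldha to Ldhb, the subunit that favours using lactate, rose by 1.33 (log2) from a crypt range of 5.71 to 6.86 to a monolayer range of 6.87 to 8.81, with as few as 17 Ldhb counts in a library and 20.99% of Ldhb stretches shared with a pseudogene. Pfkp to Pfkl, the platelet and liver forms of phosphofructokinase, rose by 0.49, from 0.47 to 0.83 in crypts to 0.92 to 1.35. Hk2 to Hk1 rose by 0.34, from -0.06 to 0.05 in crypts to 0.07 to 0.66. Aldoa to Aldoc, the brain aldolase, was the one ratio that fell: it dropped by 1.25 (log2), from 4.96 to 5.74 in crypts to 4.07 to 4.39 in monolayers, while Aldoc went from 11.6 ± 3.30 to 135 ± 19.5 CPM. Among days, Hk2 to Hk1 lay at 0.07 to 0.24 at day 3, 0.08 to 0.41 at day 4 and 0.55 to 0.66 at day 5, the last group being clear of the others. With 3 libraries against 3, no exact test between days could go below 0.10, and none was run.

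**Figure D3:**
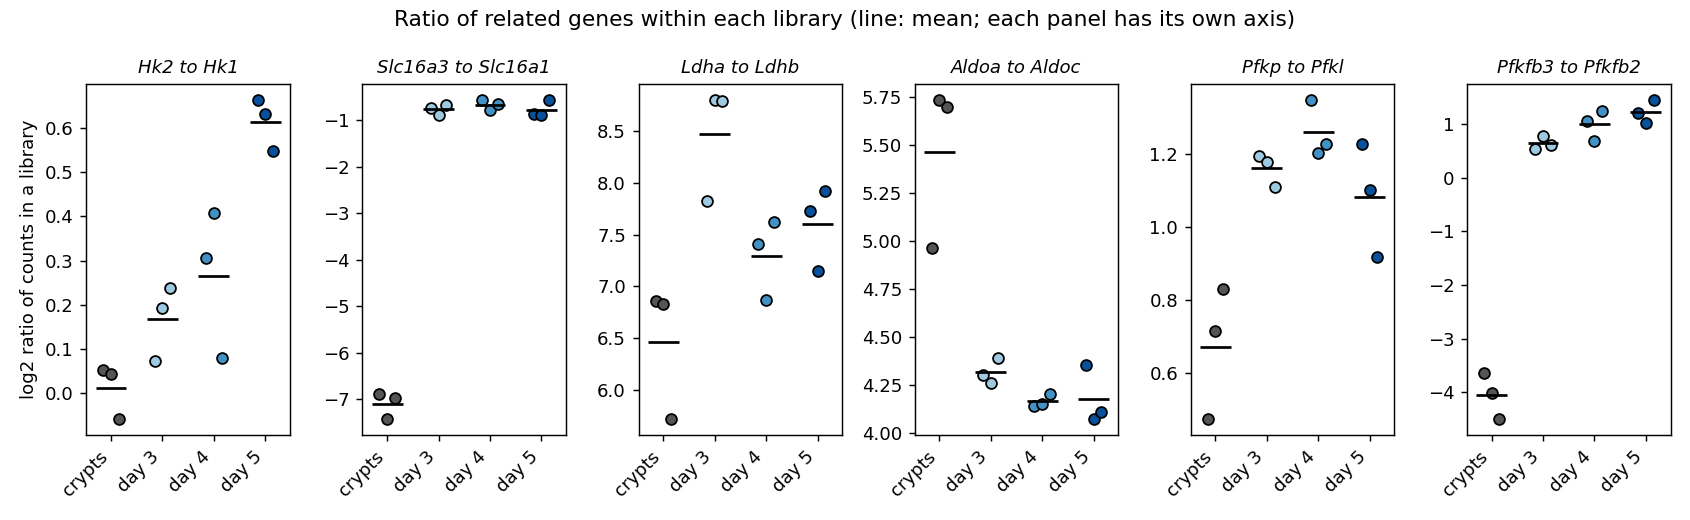
Log2 ratio of the counts of 2 related genes within each library (points) and group mean (line), with a separate linear axis in each panel. In all 6 panels crypts and monolayers do not overlap, and in the panel of Aldoa to Aldoc the crypts are the higher group.

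The rest of glucose metabolism was called in both directions. Of 87 further genes listed by role, 86 were in the tables and 73 were tested: 28 were called higher in monolayers and 29 lower, beside 30.7% and 32.8% of all genes tested, with a median log2 fold change of 0.04. Whether these genes differ from the 10 as a group was not tested. Among the large called rises were those of Aldoc, Pgam1 and Myc, and among the large called falls those of Pck1, Slc2a10 and Hkdc1. Pck1, which makes phosphoenolpyruvate for gluconeogenesis, had 4213 counts in the 3 crypt libraries and 6 in the 9 monolayer libraries, a pooled CPM ratio of 2650 (exact 95% interval 1217 to 7225, counting error only). Slc2a10, a facilitative sugar transporter, had 180 counts in crypts and none in monolayers and so was at least 226-fold lower, taking 3 counts over all monolayer libraries as the floor. Hkdc1, a member of the hexokinase family, fell by 6.41 ± 0.25 (log2, edgeR adjusted p = 1.12e-13).

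By role, the counts are small and many lie near the shares of all genes called (30.7% higher and 32.8% lower), so they are given as a description. Of 9 upper glycolysis genes tested besides the 10, 7 were called higher and 2 lower, and of 7 lower glycolysis genes 4 were higher and 1 lower. The 4 higher were Gapdh, Eno1, Pgam1 and Ldhd, of which all but Ldhd share much sequence with other genes, as given below. The glucose transporters other than Slc2a1 had 0 higher and 4 lower among 7 tested, with a median of -2.06, which stays in place with Slc2a10 at its bound. Slc5a1, on that list and named here after its values were seen, went from 167 ± 19.5 CPM in crypts to 7.40 ± 3.13 CPM in monolayers. In crypts it thus stood above Slc2a1, which had a mean of 82.5 ± 19.1 CPM there. Of 13 genes for pyruvate entry into mitochondria, 9 were lower and 2 higher. That list mixes the pyruvate carrier and the subunits of pyruvate dehydrogenase with genes that act on the enzyme in opposite ways. These are the kinases Pdk1 to Pdk4, which close it, and the phosphatases Pdp1 and Pdp2, which reopen it. The counts therefore give no direction for pyruvate entry. The 3 monocarboxylate transport genes split into 1 higher, the carrier partner Bsg at 2.26 ± 0.09 (log2, edgeR adjusted p = 1.19e-13), and 2 lower. Gluconeogenesis had 2 higher and 3 lower of 5, fructose use 1 and 2 of 3, the pentose phosphate pathway 3 and 0 of 8, glycogen 4 and 1 of 8, and regulators of glycolysis 3 and 4 of 8.

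Several genes are named here after their values were seen. Pdk1, a kinase that closes pyruvate dehydrogenase, was at 40.4 ± 10.4 CPM in crypts and 203 ± 8.67 CPM in monolayers. Its log2 fold change was 2.32 ± 0.12 (edgeR adjusted p = 3.24e-12). The other kinases of that enzyme, Pdk2, Pdk3 and Pdk4, were called lower in monolayers, with log2 fold changes of -0.68, -1.66 and -3.98. Tpi1 went from 164 ± 10.6 to 444 ± 30.7 CPM (1.44 ± 0.07, edgeR adjusted p = 5.19e-12). The transcript of Hif1a, whose protein is mainly controlled by its stability, went the other way, from 166 ± 15.6 to 111 ± 16.6 CPM (-0.59 ± 0.09, edgeR adjusted p = 1.50e-05), and Epas1, which encodes the related HIF-2 alpha, from 189 ± 25.1 to 33.2 ± 10.9 CPM (-2.57 ± 0.09, edgeR adjusted p = 2.58e-14). Myc, named above, rose from 25.3 ± 4.00 to 170 ± 71.6 CPM (2.65 ± 0.13, edgeR adjusted p = 2.72e-12). Gapdh and Eno1, usually among the most abundant transcripts of a cell, had only 3.80 ± 1.35 and 4.79 ± 2.49 CPM in crypts and 8.97 ± 1.47 and 15.9 ± 3.85 CPM in monolayers. Stretches shared with other genes made up 24.7% of Gapdh, with 213 pseudogenes among them, and 26.0% of Eno1, and these values were not read as levels of the enzymes. The share was 36.2% for Pgam1, and the same limit holds for its level.

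**Figure D4:**
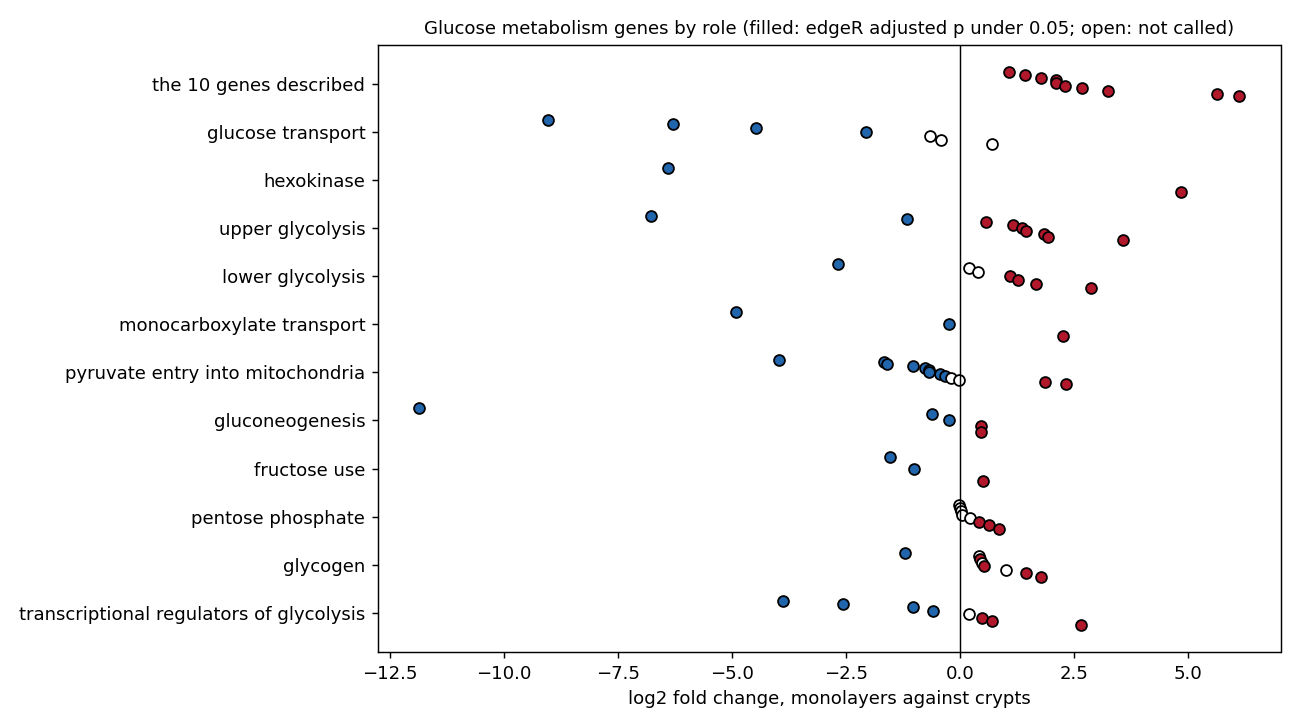
Log2 fold change of monolayers against crypts for the 10 genes (top row) and for 73 further genes of glucose metabolism by role, filled where called at an edgeR adjusted p under 0.05 and open where not. The 10 genes lie between 1.08 and 6.12, whereas the further genes lie on both sides of 0 with a median of 0.04.

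Between days, 6 of the 10 genes were called in no pair of days and 4 were called in at least 1 pair. From day 3 to day 4, 1 of the 10 was called higher, against 1.59% of all genes tested. That gene was Gpi1, whose 3 libraries at day 4 all lay above those of day 3 (0.60 ± 0.09 log2, edgeR adjusted p = 0.00169). Aldoa also lay wholly higher at day 4, with a change of 0.25 ± 0.08 that was not called by edgeR (adjusted p = 0.109) but was called by DESeq2 (adjusted p = 0.0101) and by edgeR with only the 2 groups in the fit (adjusted p = 0.0131).

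From day 4 to day 5, 1 gene was called higher (3.36% of all genes tested were) and 1 lower (4.2%). Hk2 was higher by 0.47 ± 0.09 (log2, edgeR adjusted p = 0.00337), and Pgk1 fell by 0.56 on the log2 scale (SE 0.12, edgeR adjusted p = 0.00494), each without overlap. Pfkfb3 was higher in all 3 libraries of day 5, by 0.33 ± 0.11, but was not called (edgeR adjusted p = 0.0872). Without crypts replicate 1 or crypts replicate 3 it was called (edgeR adjusted p = 0.0486 and 0.0272), as it was without the filter on low counts (0.0307), with only the 2 groups in the fit (0.021) and by DESeq2 (0.0219). The fit takes 1 estimate of spread from all 12 libraries.

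Between day 3 and day 5, 3 genes were called higher, against 9.9% of all genes tested, and 1 was called lower, against 10.5%. Gpi1 was higher by 0.66 ± 0.09 (log2, edgeR adjusted p = 4.39e-05), Pfkfb3 by 0.57 ± 0.11 (0.00119) and Hk2 by 0.56 ± 0.09 (0.000266). Pgk1 was lower by -0.36 ± 0.12 (edgeR adjusted p = 0.0328). The call on Pgk1 was lost without day 3 replicate 2 (edgeR adjusted p = 0.136), day 3 replicate 3 (0.119), day 5 replicate 1 (0.117) or day 5 replicate 2 (0.086), while its direction stayed. Pkm lay lower at day 5 without overlap, at -0.19 ± 0.08 and not called (edgeR adjusted p = 0.0966), but was called without day 5 replicate 3 (0.0414) and by DESeq2 (0.0334). Aldoa lay higher at day 5 without overlap, at 0.19 ± 0.08 and not called (edgeR adjusted p = 0.103), but was called by DESeq2 (0.0384) and with only the 2 groups in the fit (0.0497). Without day 5 replicate 1, the library that stood apart, the changes of Gpi1, Pfkfb3 and Hk2 were 0.66, 0.55 and 0.50 and still called. Slc2a1, Hk1, Ldha and Slc16a3 moved by at most 0.18 (log2) between any pair of days, and none of these changes was called. The share of Malat1, given above, was higher on later days, and the sum of the 8 epithelial markers was lower, at 14283 to 14771 CPM on day 3, 12606 to 12897 CPM on day 4 and 10956 to 11905 CPM on day 5. The keratins Krt8, Krt18 and Krt19 carried that lower sum, while Epcam had a mean of 1010 CPM on day 3 and 1998 CPM on day 5, and Cdh1 one of 1483 and 1620 CPM. The part of any of these in the comparisons was not tested.

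**Figure D5:**
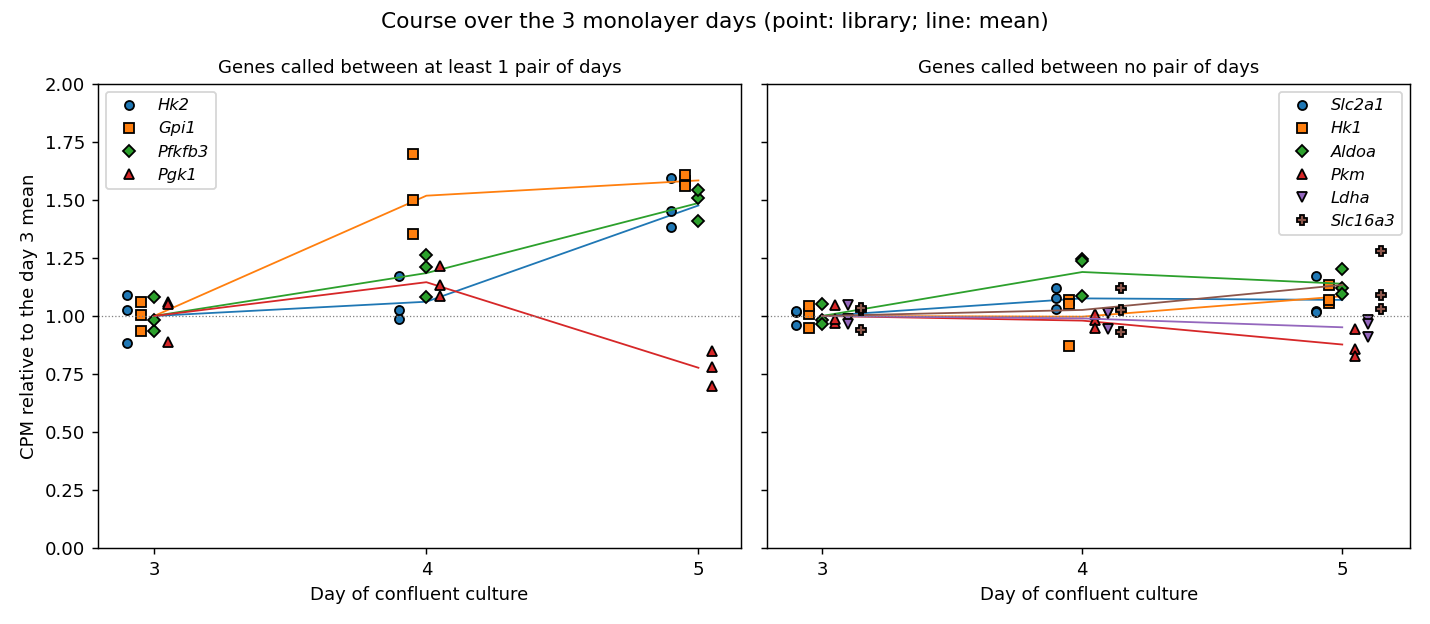
Level of each gene relative to its day 3 mean (CPM ratio, linear axis from 0) in the 9 monolayer libraries (points), with the day means joined, for the 4 genes called between days (left) and the 6 that were not (right). Gpi1 reaches its upper level at day 4, Hk2 and Pfkfb3 are highest at day 5, and the Pgk1 mean is highest at day 4 and lowest at day 5.

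Of the 73 further genes of glucose metabolism tested, 4 were called higher and 1 lower from day 3 to day 4, 2 higher and 6 lower from day 4 to day 5, and 10 higher and 10 lower between day 3 and day 5. Of all genes tested, 1.59% were higher and 1.17% lower in the first of these pairs, 3.36% and 4.2% in the second and 9.9% and 10.5% in the third, and several of the counts lie near these shares. At day 4 the 4 higher genes were Pdk2 (0.91 ± 0.19 log2), Sord (0.69 ± 0.16), Bsg (0.57 ± 0.09) and Ugp2 (0.48 ± 0.12), and Myc was lower (-0.62 ± 0.13). From day 4 to day 5 the higher genes were Slc2a13 (1.12 ± 0.31) and Epas1 (0.71 ± 0.13), and the 4 largest falls were Pck2 (-0.84 ± 0.16), Myc (-0.83 ± 0.13), Pgls (-0.69 ± 0.19) and Pgd (-0.48 ± 0.10). Between day 3 and day 5 the 4 largest rises were Pdk2 (1.48 ± 0.19), the glycolytic regulator Pfkfb4 (1.38 ± 0.24), Sord (1.20 ± 0.16) and Slc2a8 (1.11 ± 0.33), and the 4 largest falls Hkdc1 (-3.01 ± 0.60, on a mean of 0.147 CPM at day 5), Pdk3 (-1.83 ± 0.36), Myc (-1.44 ± 0.13) and Pck2 (-1.41 ± 0.16). Myc was thus at 253 ± 25.8 CPM at day 3, 165 ± 19.2 CPM at day 4 and 92.9 ± 15.3 CPM at day 5, each still above crypts. Bsg, the chaperone that carries Slc16a3 to the membrane, was at 2033 ± 176, 3022 ± 294 and 3474 ± 299.8 CPM over the same days.

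Genes of any kind whose profile over the 12 libraries was most like the mean profile of the 10 were sought among 8788 tested genes with a mean of at least 10 CPM. Likeness was the root mean square difference in log2 CPM after centring each gene on its own mean. The 5 nearest were Nudt18 (0.14), Vopp1 (0.146), Cgnl1 (0.147), Pard6b (0.154) and Map7d1 (0.157). Cgnl1 encodes a protein of cell junctions and went from 96.3 ± 5.70 CPM in crypts to 607 ± 34.2 CPM in monolayers, and Pard6b, a cell polarity protein, went from 38.4 ± 8.05 to 234 ± 17.4 CPM. Within the 10, Pkm lay nearest to the mean profile (0.154), followed by Aldoa (0.235), and Slc16a3 (1.39) and Pfkfb3 (1.20) lay farthest from it. By the same measure Slc16a3 and Pfkfb3 were each other's nearest gene (0.385), as were Hk1 and Hk2 (0.236) and Slc2a1 and Aldoa (0.169).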

How the data were processed

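Total RNA of 3 crypt and 9 monolayer libraries of mouse colon was compared, grouped by the labels alone. The values are the counts deposited by the authors, unnormalized whole numbers for each gene. The tools were HTSeq, TopHat2 and CASAVA 1.9 per the submitters' processing notes, which name the builds mm9 and mm10 without saying what each served for. The 5 summary lines of each file stayed out of library sizes. They hold reads in no gene (38.7 to 49.0%) and reads without a unique alignment (14.2 to 19.2%).

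Genes were kept by filterByExpr (minimum count 10), scaled by TMM and tested in R 4.3.3 with the quasi-likelihood test of edgeR 4.0.16 in 1 fit of all 12 libraries, and a gene was called at a Benjamini-Hochberg adjusted p under 0.05 over 12863 genes. The steps were tested on simulated data. Ratios were taken as log2 of counts plus 0.5 within a library and tested by exact permutation. Intervals cover counting error only, since the reads carry no molecular identifiers in the sources used here. Alternatives were RLE, upper quartile and total scaling, no filter, DESeq2 1.42.0, fits of only the groups compared, a replicate block and leaving out each library. Same-numbered libraries did not deviate together (r of -0.034 to 0.058), so numbers only name libraries. Exon lengths, overlaps and shared 50-base stretches came from GENCODE M21, looked up by symbol, and promoter windows from RefSeq.

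The 10 genes, the gene and marker lists, the pairs of the ratios and the rule for named genes were chosen with earlier results of these data known. The rule names all 10 genes, the partners in the ratios and, per comparison, up to 4 further genes called each way with the largest change and a mean of at least 1 CPM. Some genes that this rule selects are left out here.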

Additional observations from a re-analysis of the deposited data

Results flagged for a closer look

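The difference from the same crypt libraries changed between days for 4 of the 10 genes, tested as the contrast of the days within the edgeR fit. The crypts cancel in such a contrast, so these are the tests between days already given above. Gpi1 differed between day 4 and day 3 (0.60 log2, edgeR adjusted p = 0.00169) and between day 5 and day 3 (0.66, 4.39e-05). Hk2 differed between day 5 and day 4 (0.47, 0.00337) and between day 5 and day 3 (0.56, 0.000266). Pfkfb3 differed between day 5 and day 3 (0.57, 0.00119). Pgk1 was the one gene that was lower later, between day 5 and day 4 (-0.56, 0.00494) and between day 5 and day 3 (-0.36, 0.0328). In all 7 cases the 3 libraries of one day lay wholly on one side of the 3 of the other.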

How the results depend on the processing

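All 10 genes stayed called higher in monolayers and at each day against crypts under every alternative, leaving out any library included. With library totals in place of TMM the median of all genes shifted by -0.18 (log2) and 37.7% of the genes called were higher instead of 48.3%, while the further genes of glucose metabolism went to 23 higher and 31 lower. With the replicate block the counts for monolayers against crypts were 28 higher and 29 lower among those genes, and the block changed no call on the 10 genes. The 6 ratios kept their direction and stayed under 0.05 in every alternative, with p up to 0.0364 when a crypt library was left out.

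Comparisons of days depended more on the fit. For day 4 against day 3, DESeq2 and the fit of only these groups each called 2 of the 10 genes higher. The further genes then numbered 9 higher with only these groups, and lower ones numbered 2 without the filter, 3 with DESeq2 and 6 with only these groups. All genes called numbered 356 in the fit of all libraries, 636 without the filter, 631 with DESeq2 and 1144 with only these groups, and 146, 155, 146, 94 and 212 without day 3 replicate 1, 2 or 3 or day 4 replicate 1 or 2. Leaving out 1 library gave 94 to 490 genes in all, 1 to 6 further genes higher and 0 to 2 lower. The further genes higher fell to 1 without day 3 replicate 1 or day 4 replicate 1 and to 2 without day 3 replicate 2 or 3 or day 4 replicate 3. Those lower fell to 0 without day 3 replicate 1 or 3 or day 4 replicate 1, and reached 2 without any 1 crypt library or without day 5 replicate 1.

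For day 5 against day 4, 2 of the 10 genes (Hk2 and Pfkfb3) were higher without the filter, with DESeq2 and with only these groups, and 1 to 2 when 1 library was left out. The further genes higher numbered 5 without the filter, 6 with DESeq2 and 1 to 3 with 1 library left out, being 1 without day 4 replicate 2 or 3 or day 5 replicate 2 or 3. All genes called numbered 972 and ran from 536 to 1207, with 536, 553 and 585 without day 4 replicate 2, day 4 replicate 3 and day 5 replicate 2. For day 5 against day 3, DESeq2 called 2 of the 10 genes lower, and leaving out 1 library gave 0 to 2. DESeq2 and the fit of only these groups called 4 higher in place of 3, Aldoa being added.

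Some changes near 0 that were called in no fit changed sign when 1 library was left out. For day 4 against day 3 these were Hk1 (-0.0578 to 0.0818 log2), Pkm (-0.0534 to 0.00316), Ldha (-0.0401 to 0.0185) and Slc16a3 (-0.0326 to 0.101), and for day 5 against day 4 Slc2a1 (-0.0803 to 0.0237) and Gpi1 (-0.0149 to 0.149). The cause of these differences was not tested. By construction, leaving out a library and fitting only the groups compared hold fewer libraries. The fit without the filter holds more genes. With 3 libraries a group and 33 to 45 counts of Pfkfb3 and 9 to 23 of Slc16a3 in crypts, depth limits the precision of those 2 fold changes.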
